A study of Homo sapiens with 6 samples.

Results

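The enzymes described here make serine, move its one-carbon unit through folate and make asparagine. They are PHGDH, PSAT1, PSPH, SHMT1, SHMT2, MTHFD1, MTHFD2, MTHFD1L, ALDH1L2 and ASNS, 10 of the 60656 genes in the count table, and every one of them has a row there. The 10 genes were chosen by function from their symbols, with no cut-off on a measured value, but earlier results of the same comparison were known when the list was drawn up, so their values in it are given as a description. RNA came from parental ZR-75-1 cells, an oestrogen receptor-positive human breast cancer line with no engineered allele, grown with DMSO or with 500 nM abemaciclib, an inhibitor of the kinases CDK4 and CDK6, for 4 days. Each group had 3 libraries, which the study describes as independent biological replicates of an experiment that was not repeated. Both groups grew in RPMI-1640 with serum, a medium that itself supplies serine, glycine and asparagine.

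Cells make serine from the glycolytic intermediate 3-phosphoglycerate, first by PHGDH, then by PSAT1 and last by PSPH. Serine hydroxymethyltransferases (SHMT1 in the cytosol, SHMT2 in mitochondria) then split serine into glycine and a one-carbon unit carried on tetrahydrofolate. In mitochondria MTHFD2 and MTHFD1L carry that unit to formate, ALDH1L2 can burn it to carbon dioxide, and in the cytosol MTHFD1 takes formate up again for purine, thymidylate and methionine synthesis. ASNS makes asparagine from aspartate and glutamine. Many of these genes are known targets of ATF4, the transcription factor of the amino acid response, and the pathway is known for its high activity in dividing and tumour cells.

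The libraries held 3317860 to 4013156 counts on genes, and levels are given as CPM, counts scaled to a library of 1000000 with TMM factors. The library kit reads the 3′ end of each transcript. In a single library 3 counts were 0.740 to 0.909 CPM. A count of 0 over the 3 libraries of a group was taken to allow up to 3 counts in that group as a whole, a limit that covers counting error only. All 8 luminal epithelial markers on the list used here had enough counts to be tested (1 lower, KRT18, and 2 higher, KRT19 and ESR1), with a summed level of 7478 to 7935 CPM with DMSO and 8520 to 9512 CPM with abemaciclib. KRT5, KRT14, TP63, COL1A2, COL3A1, PDGFRB, PTPRC, CD3E, LYZ, PECAM1 and CDH5 had 0 counts in every library. The summed level ranged from 0 to 1.51 CPM for 4 basal markers, from 0 to 0.297 CPM for 5 leukocyte markers and from 0 to 1.51 CPM for 3 endothelial markers. The 5 fibroblast markers summed to 10.4 to 15.8 CPM with DMSO and 10.1 to 15.4 CPM with abemaciclib, nearly all of it COL1A1. MKI67, a marker of dividing cells, lay between 494 and 557 CPM with DMSO and between 3.21 and 7.57 CPM with abemaciclib.

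Abemaciclib-treated cells had less mRNA for the entry enzyme of serine synthesis, PHGDH, for the next enzyme, PSAT1, and for the mitochondrial folate enzymes SHMT2, MTHFD2 and MTHFD1L. Of the 10 members, 8 had enough counts for a test, and of these 5 were lower and 0 higher at an adjusted p under 0.05 (edgeR, quasi-likelihood test, adjusted over all genes). Among the 10863 genes tested, 13.3% were lower and 12.5% higher by the same rule. At an unadjusted p under 0.05, 6 members were lower and 0 higher. The remaining 3 tested members, PSPH, SHMT1 and MTHFD1, did not pass. ASNS had too few counts for a test and ALDH1L2 had none. In the same 5 members every abemaciclib library lay below every DMSO library, a pattern that 20.1% of all genes tested showed, while 19.1% showed the opposite pattern and 0 members did. The median log2 fold change of the 8 tested members was −0.84, against −0.00178 for all genes tested. In RNA from whole cultures, fewer cells with a transcript and less of it per cell cannot be told apart.

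**Figure D1:**
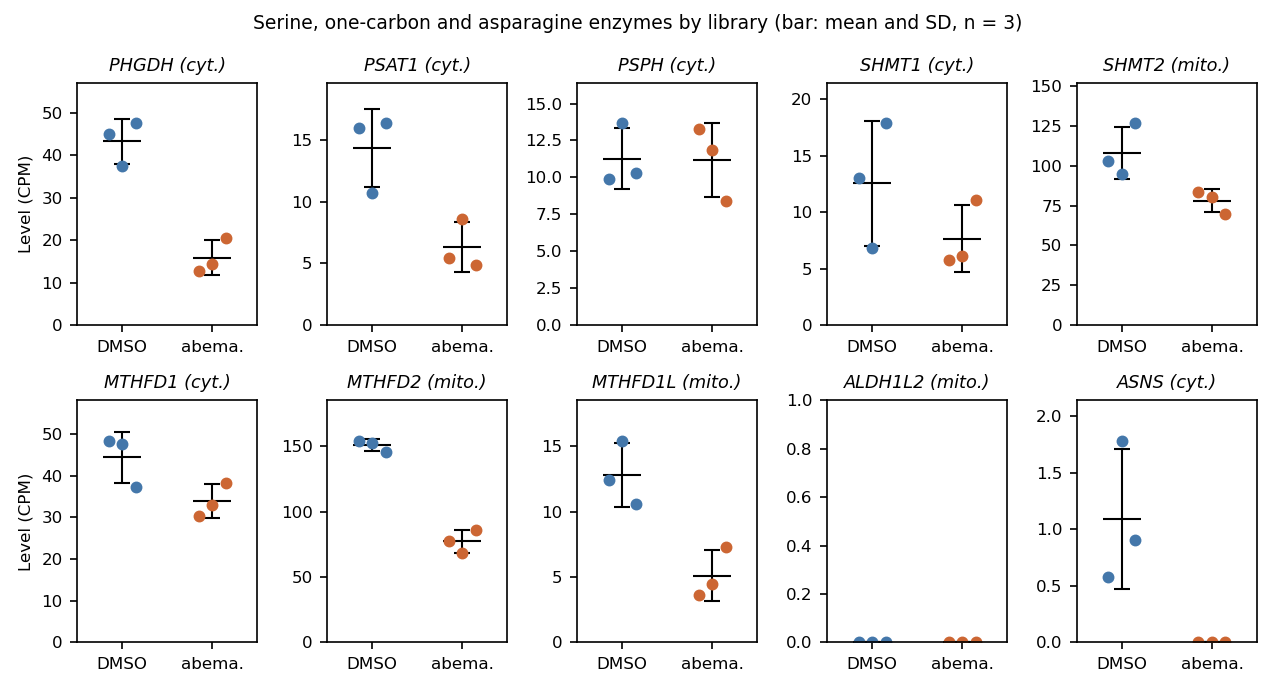
Level of each of the 10 enzymes in CPM (vertical axes, each starting at 0) in the 3 DMSO libraries (blue) and the 3 abemaciclib libraries (orange, abema.), with the mean and SD as bars; cyt. marks cytosolic and mito. mitochondrial enzymes. PHGDH fell from a mean of 43.3 to 15.9 CPM and MTHFD2 from 151 to 77.4 CPM with no overlap of the groups, PSPH overlapped throughout, and ALDH1L2 was at 0 in every library.

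PHGDH oxidizes 3-phosphoglycerate and so commits it to serine. It lies on chromosome 1 of GRCh38 from 119648411 to 119744218. With DMSO its level was 44.96, 37.4 and 47.6 CPM in replicates 1, 2 and 3, from 155, 126 and 157 counts. With abemaciclib it was 12.7, 14.3 and 20.5 CPM, from 42, 58 and 76 counts. The highest abemaciclib library therefore stood well under the lowest DMSO library. The mean went from 43.3 ± 5.26 to 15.9 ± 4.14 CPM (SD, n = 3 in each group). On the log2 scale PHGDH fell by 1.45 ± 0.21 (standard error; edgeR adjusted p = 3.69e-06).

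PSAT1 transfers the amino group from glutamate in the next step, and lies on chromosome 9 from 78297125 to 78330093. Its level was 16.0, 10.7 and 16.4 CPM with DMSO and 5.45, 8.64 and 4.86 CPM with abemaciclib. The groups did not overlap, though DMSO replicate 2 and abemaciclib replicate 2 came close to each other, at 10.7 and 8.64 CPM. PSAT1 fell by 1.17 ± 0.33 on the log2 scale (standard error; adjusted p = 0.00883).

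PSPH removes the phosphate in the last step, and lies on chromosome 7 from 56011051 to 56051604. It stood at 9.86, 13.7 and 10.3 CPM with DMSO and at 13.3, 11.8 and 8.38 CPM with abemaciclib. High and low libraries were found in both groups, and the means were 11.3 ± 2.08 and 11.2 ± 2.53 CPM (SD, n = 3 in each group). The log2 fold change of PSPH was −0.02, with a standard error of 0.30 that leaves moderate changes in either direction undetectable at this depth (adjusted p = 0.978). Along the 3 steps of serine synthesis the log2 fold changes were thus −1.45, −1.17 and −0.02, and the differences between them were not tested.

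SHMT2, the mitochondrial serine hydroxymethyltransferase, lies on chromosome 12 from 57229573 to 57234935. Its level was 103, 95.1 and 127 CPM with DMSO and 83.8, 80.4 and 70.0 CPM with abemaciclib. Every treated library was below every control, by a margin that was small beside the spread of the DMSO libraries. SHMT2 fell by 0.47 ± 0.13 on the log2 scale (standard error; adjusted p = 0.00779), the smallest change among the 5 members past the threshold. It did not pass without DMSO replicate 3, the highest library (log2 fold change −0.34, adjusted p = 0.0876). The 3′ end of SHMT2 overlaps NDUFA4L2 on the opposite strand, which held 0 to 2 counts a library. The strand setting of the counting is not given, so the counts of SHMT2 are uncertain.

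SHMT1, its cytosolic counterpart, lies on chromosome 17 from 18327860 to 18363563. It was found at 13.1, 6.83 and 17.9 CPM with DMSO and at 5.75, 6.17 and 11.1 CPM with abemaciclib. DMSO replicate 2 lay within the range of the treated libraries and abemaciclib replicate 3 within that of the controls, so the groups overlapped. Its fitted change was −0.71 ± 0.36 on the log2 scale (standard error; adjusted p = 0.153), and it passed without abemaciclib replicate 3 (−1.07, adjusted p = 0.0333). The 3′ end of SHMT1 overlaps SMCR8 on the opposite strand, which held 42 to 45 counts with DMSO and 60 to 85 with abemaciclib, and since the strand setting of the counting is not given, the counts of SHMT1 are uncertain.

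MTHFD2 oxidizes methylene-tetrahydrofolate in mitochondria, and lies on chromosome 2 from 74186172 to 74217565. Its level was 154, 153 and 145 CPM with DMSO, the tightest group of any member relative to its mean. With abemaciclib it was 77.5, 68.6 and 86.2 CPM. The mean fell from 151 ± 4.75 to 77.4 ± 8.80 CPM (SD, n = 3 in each group), 0.513 of the DMSO level, and no library of one group came near the other. MTHFD2 fell by 0.96 ± 0.12 on the log2 scale (standard error), with an adjusted p of 2.78e-07, the smallest adjusted p of the 8 tested members. The 3′ end of MTHFD2 overlaps SLC4A5 on the opposite strand, which had 0 counts in every library. The counts of MTHFD2 are therefore uncertain in the same way as those of SHMT1 and SHMT2.

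MTHFD1L releases formate in mitochondria, and lies on chromosome 6 from 150865679 to 151101887. It was found at 12.5, 15.5 and 10.6 CPM with DMSO and at 3.63, 4.44 and 7.30 CPM with abemaciclib, from as few as 12 counts in a library. The groups did not overlap. On the log2 scale MTHFD1L fell by 1.32 ± 0.36 (standard error; adjusted p = 0.00631). It missed the threshold without DMSO replicate 2, at −1.16 with an adjusted p of 0.0529.

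MTHFD1 carries out 3 folate reactions in the cytosol, and lies on chromosome 14 from 64388031 to 64463457. Its level was 48.4, 47.5 and 37.3 CPM with DMSO and 30.3, 33.1 and 38.4 CPM with abemaciclib. DMSO replicate 3 fell below abemaciclib replicate 3, so the groups overlapped. Its fitted change was −0.39 ± 0.17 on the log2 scale (standard error), with an unadjusted p of 0.032 and an adjusted p of 0.0988. ALDH1L2, on chromosome 12 from 105019784 to 105107643, had 0 counts in all 6 libraries, which allows up to 3 over each group, and nothing can be said of its change.

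ASNS, on chromosome 7 from 97851677 to 97872542, had few counts even without the drug, with 2, 6 and 3 in the DMSO libraries, or 0.580, 1.78 and 0.909 CPM. All 3 abemaciclib libraries had 0 counts. Against the limit of 3 counts over the abemaciclib group, the 11 DMSO counts make ASNS at least 4.01-fold lower with abemaciclib. This takes the DMSO counts as they stand, without their own counting error or the spread between libraries. Fitted without the filter on low counts, ASNS did not pass the threshold (adjusted p = 0.102). Another annotated gene overlaps the 3′ end of ASNS on the same strand and had 0 counts in every library. How reads shared by overlapping genes were assigned is not given, so the low counts of ASNS may not show low expression.

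The promoters of ASNS and MTHFD1L are shown because they were the 2 members whose promoter window held the core of the C/EBP-ATF response element, the kind of site through which ATF4 is known to act. Windows ran from 250 bases before to 50 bases after each RefSeq start on GRCh38.p14, and 7 of the 10 members had at least 1 window (PSPH, SHMT2 and ALDH1L2 had no entry). The motif searched was TGATGNAA, on both strands, and capitals mark the match. Both sequences read 5′ to 3′ on the strand of the gene.
ASNS, minus strand, chr7:97872443-97872502: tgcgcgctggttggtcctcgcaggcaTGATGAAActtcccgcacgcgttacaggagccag
MTHFD1L, plus strand, chr6:150866331-150866390: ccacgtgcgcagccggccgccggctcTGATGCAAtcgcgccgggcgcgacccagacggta

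The match began 68 bases before the ASNS start and 129 bases before a MTHFD1L start, or 24 bases after another of the annotated MTHFD1L starts. These letters were found in 3.62% of all 34943 windows, or in at least 1 window of 4.47% of the symbols. PHGDH, PSAT1, SHMT1, MTHFD1 and MTHFD2 had no match in their windows, nor did ATF4 or TYMS. TTTNNCGC, a loose form of the E2F site, was searched on both strands. It was found in 6.85% of all windows, or in at least 1 window of 8.19% of the symbols. The windows of 0 of the 7 members held it, while those of TYMS and ATF4 did. A match is a run of letters, and binding was not measured in these libraries.

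**Figure D2:**
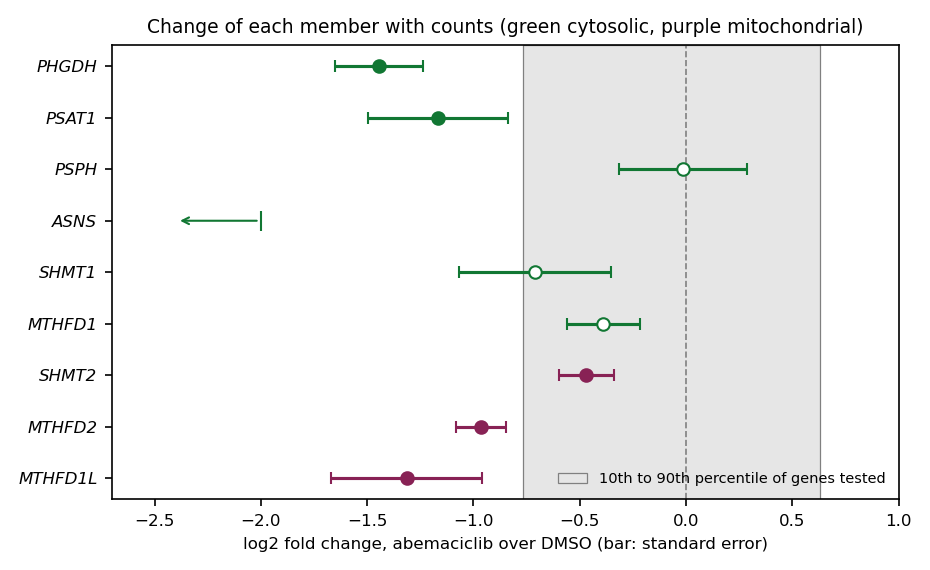
Fitted log2 fold change (horizontal axis, abemaciclib over DMSO) with its standard error for the 8 tested enzymes, and the bound for ASNS as an arrow; green marks cytosolic and purple mitochondrial enzymes, filled points passed an adjusted p under 0.05, the grey band spans the 10th to 90th percentile of all genes tested (−0.77 to 0.63) and the dashed line is their median. PHGDH, PSAT1, MTHFD2 and MTHFD1L lie to the left of the band, and PSPH sits on the median.

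Mitochondrial and cytosolic enzymes were then set side by side. All 3 mitochondrial members with counts were lower, with a median log2 fold change of −0.96, and 2 of the 5 tested cytosolic members were lower, with a median of −0.71. Over all genes tested 13.3% were lower. Of the mitochondrial calls, that of SHMT2 was lost without DMSO replicate 3 and that of MTHFD1L without DMSO replicate 2. With ASNS at its bound the median of the 6 cytosolic members was −0.94. Without DMSO replicate 2 the order of the medians turned with ASNS still left out, at −1.01 for the cytosolic and −0.96 for the mitochondrial members. The summed level of the mitochondrial members was 263 to 283 CPM with DMSO and 154 to 165 CPM with abemaciclib, and that of the cytosolic members 118 to 133 CPM and 67.5 to 83.2 CPM. Both sums dropped out of the range of the DMSO libraries, and a difference between the compartments as lists was not tested.

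Enzymes that share chemistry across the compartments allow a closer comparison, since a ratio of 2 genes within a library needs no scaling. MTHFD2 and MTHFD1L each match only part of what MTHFD1 does, so their ratios set a part against the whole. The log2 ratio of MTHFD2 over MTHFD1 was 1.67, 1.68 and 1.96 in the DMSO libraries and 1.35, 1.05 and 1.17 in the abemaciclib libraries. Every treated library was below every control, by a mean difference of −0.58. The log2 ratio of MTHFD1L over MTHFD1 was −1.95, −1.61 and −1.80 with DMSO and −3.01, −2.86 and −2.37 with abemaciclib, a mean difference of −0.96. These groups did not overlap either. Both ratios rest on the same MTHFD1 counts, so they are not independent of each other. For both ratios the exact permutation test over libraries, two-sided, gave p = 0.1 (adjusted p = 0.15 over 3 ratios), and 0.1 is the smallest p that 3 against 3 libraries allow.

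The log2 ratio of SHMT2 over SHMT1 gave no such split, at 2.96, 3.77 and 2.81 with DMSO and 3.83, 3.68 and 2.65 with abemaciclib. Both groups spanned the same range, with a mean difference of 0.20 (exact permutation test, two-sided, p = 0.9, adjusted p = 0.9). Its SD was 0.51 and 0.65 (n = 3 in each group), several times that of MTHFD2 over MTHFD1 at 0.17 and 0.15. The counts of SHMT1 were low and, like those of SHMT2, uncertain, and their part in the spread of this ratio was not tested. ALDH1L2 has the cytosolic counterpart ALDH1L1, which had 1 count in all, so that pair gave no ratio. Another annotated gene overlaps the 3′ end of ALDH1L1 on the other strand, so its low count may not show low expression.

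**Figure D3:**
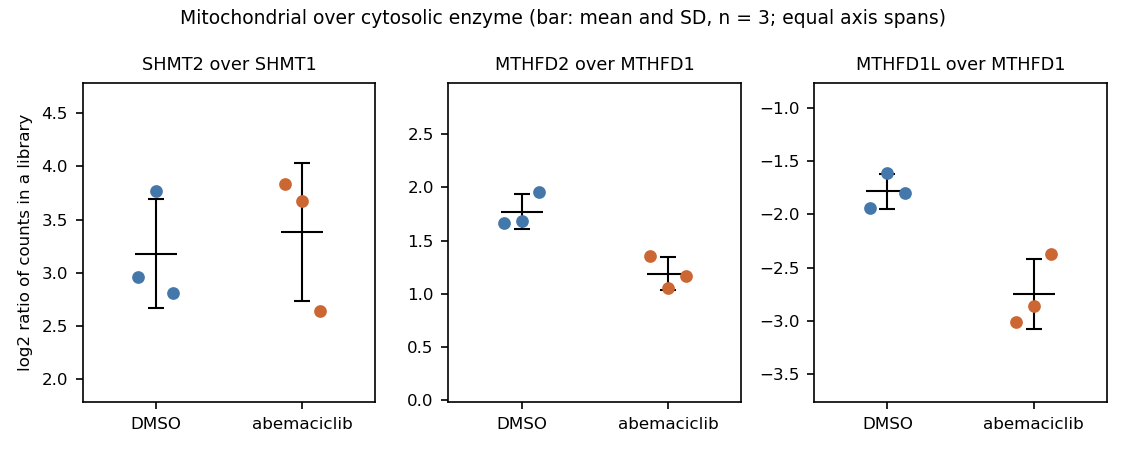
Log2 ratio of counts in each library (vertical axes, each spanning the same length) for SHMT2 over SHMT1, MTHFD2 over MTHFD1 and MTHFD1L over MTHFD1, with DMSO libraries in blue, abemaciclib libraries in orange and bars for the mean and SD. The last pair of ratios is lower in every abemaciclib library, by 0.58 and 0.96 in the mean, and the groups overlap for SHMT2 over SHMT1.

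Within a group the members did not all rank the libraries alike. Abemaciclib replicate 3 was the highest of its group for 5 of the 8 tested members, including PHGDH, MTHFD2 and MTHFD1L, and the lowest for the other 3, PSAT1, PSPH and SHMT2. Abemaciclib replicate 1 was the lowest for 4 members and the highest for 2. DMSO replicate 2 was the lowest of its group for 4 members. Relative to the DMSO mean, the median of the mitochondrial members tested was −0.96, −1.13 and −0.76 in abemaciclib replicates 1, 2 and 3 on the log2 scale, and that of the cytosolic ones −0.97, −0.68 and −0.39.

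ATF4 itself, the transcription factor of the amino acid response, was lower with abemaciclib. It stood at 169, 135 and 165 CPM with DMSO and at 52.9, 46.6 and 57.6 CPM with abemaciclib, with no overlap, and fell by 1.58 ± 0.13 on the log2 scale (standard error; adjusted p = 1.03e-10). Of 16 stress regulators and targets listed, 15 were tested, and 9 were lower, 1 was higher and 5 did not pass, with a median of −0.69 on the log2 fold change scale. Over all genes tested 13.3% were lower and 12.5% higher. Earlier results of these libraries, those of ATF4 and CHAC1 among them, were known when the list was written. The largest falls beside ATF4 were those of CHAC1, which degrades glutathione, at −4.16, of DDIT3 at −2.22 and of TRIB3, an inhibitor of ATF4, at −1.57. CHAC1 had only 7, 3 and 3 counts in abemaciclib replicates 1, 2 and 3, so the size of its fall is imprecise. It ranged from −4.75 to −3.89 with 1 library left out. MARS1 runs over the 3′ end of DDIT3 in the other direction, which makes the DDIT3 counts uncertain. ATF5, another factor of the response, rose by 0.47 on the log2 scale, a call that did not pass when DMSO replicate 1 (0.37) or abemaciclib replicate 1 (0.34) was left out. The counts of ATF5 are uncertain, because another annotated gene overlaps its 3′ end on the same strand. The kinases EIF2AK4 and EIF2AK3, which sense amino acid and endoplasmic reticulum stress, had log2 fold changes of 0.25 and 0.31 that did not pass. The part of ATF4 in the levels of the 10 enzymes was not tested.

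Genes of DNA synthesis moved too. All 11 of the listed thymidylate, deoxynucleotide and S phase genes were lower, with a median log2 fold change of −1.92, from −0.89 for MCM2 to −6.71 for MKI67, and with 2 of them, TYMS included, also counted among the folate genes. Over all genes tested 13.3% were lower. Earlier results of these libraries, those of MKI67, TK1 and CCNA2 among them, were known when the list was written, so the count is a description. After MKI67 the largest falls were those of TYMS at −6.06, CCNA2 at −5.17 and RRM2 at −4.90. With abemaciclib these held 1 to 10 counts a library, so the sizes of their falls are imprecise. The counts of TYMS and CCNA2 are uncertain, because ENOSF1 and EXOSC9 run over their 3′ ends from the other strand. Another annotated gene, with 0 counts in every library, overlaps MCM2 in the same way. How far the members' levels moved with these genes was not tested.

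Of 15 other folate genes, 11 were tested, with 2 lower, 1 higher and a median log2 fold change of −0.05. These counts are near the shares over all genes tested, 13.3% lower and 12.5% higher. TYMS, 1 of the 2 lower genes, uses a one-carbon unit to make thymidylate. TYMS fell from 83.0, 74.9 and 85.1 CPM to 1.21, 0.493 and 1.89 CPM. SLC25A32, the mitochondrial folate carrier, had 1 count with DMSO and 4 with abemaciclib and was not tested. Another annotated gene, with 0 counts in every library, overlaps the 3′ end of SLC25A32 on the same strand. How shared reads were assigned is not given, so the low counts of SLC25A32 may not show low expression. The count of higher genes went from 1 to 0 without DMSO replicate 1 or without abemaciclib replicate 2. The 8 tested folate genes that did not pass ranged from MTHFD2L at −0.27 to MTFMT at 0.63.

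Of glycine cleavage, another mitochondrial source of one-carbon units, GLDC, AMT and GCSH had too few counts to be tested. The counts of AMT are uncertain, because another annotated gene overlaps its 3′ end on the same strand. DLD, which also serves other enzymes, stood at 0.25 on the log2 fold change scale (adjusted p = 0.308). Of 6 genes listed for the methionine cycle and transsulfuration, 4 were tested, and 1, AHCYL1, rose by 0.62 (adjusted p = 1.52e-05). AHCYL1 is an AHCY-like protein and not an established enzyme of the cycle, and MAT2A, MAT2B and AHCY did not pass. AHCY joined AHCYL1 without abemaciclib replicate 1 (0.38, against 0.31 with all libraries), which took the count from 1 to 2. The counts of AHCY are uncertain, because another annotated gene overlaps its 3′ end on the same strand. Over all genes tested 12.5% were higher. CBS, which joins serine to homocysteine, had 0 counts in every library.

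All 7 carriers of serine and asparagine listed were tested, with 2 lower and 1 higher, against 13.3% lower and 12.5% higher over all genes tested. SLC38A2, a carrier of small neutral amino acids, went from 69.9, 78.4 and 70.6 CPM to 46.9, 46.6 and 43.0 CPM (log2 fold change −0.68, adjusted p = 0.000495). SLC1A4, which also carries serine, fell by 0.68 on the log2 scale as well (adjusted p = 0.000115). Both had groups that did not overlap. SFXN3, of the family of mitochondrial serine carriers, rose by 0.82 (adjusted p = 0.00402). Its relative SFXN1, the best known mitochondrial serine carrier, had a log2 fold change of −0.41 that did not pass. Without abemaciclib replicate 3, SFXN1 (−0.70) and SLC1A5 (−0.34) passed as well, which took the count of lower carriers to 4.

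**Figure D4:**
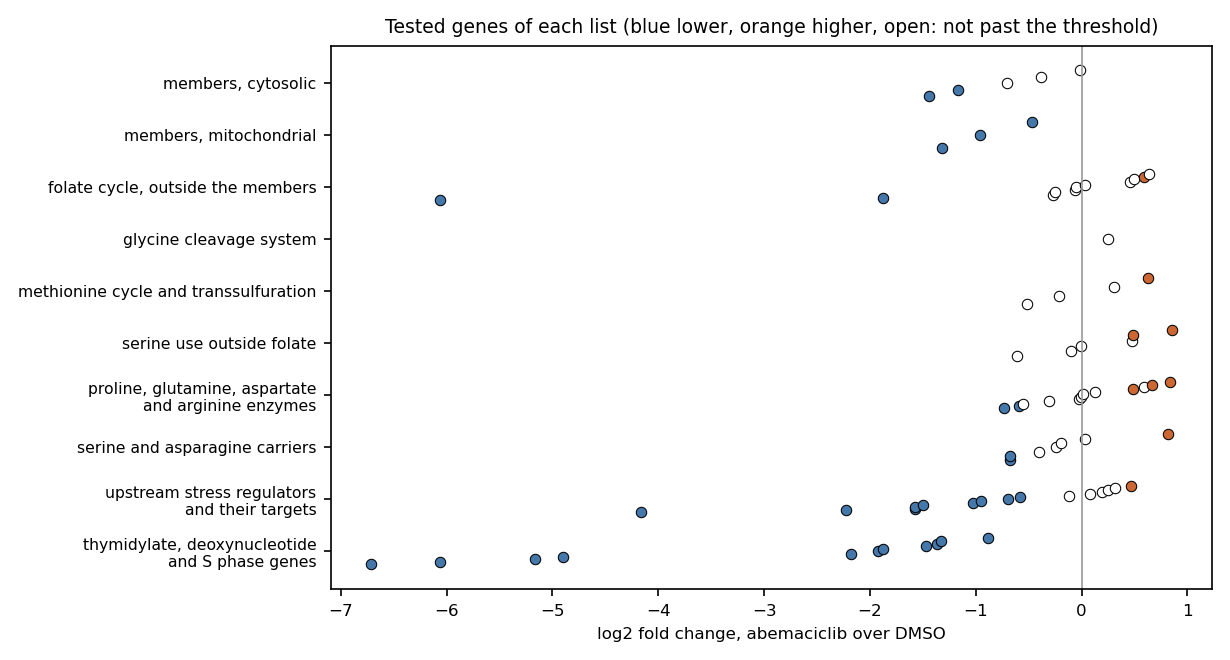
Fitted log2 fold change (horizontal axis, abemaciclib over DMSO) of every tested gene in the lists of the 10 enzymes and of related genes, 1 point a gene; blue points were lower and orange points higher at an adjusted p under 0.05, and open points did not pass. All 11 DNA synthesis genes and 9 of 15 stress regulators and targets are blue, against 13.3% lower over all genes tested, while 8 of 11 other folate genes are open.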

How the data were processed

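The 6 libraries, 3 with DMSO and 3 with abemaciclib, were grouped by the treatment in their labels. The deposited values are raw counts per gene: per the study's methods and the labels, the authors trimmed single-end 3′ mRNA reads (BBDuk), used STAR 2.7.5b for alignment to hg38 and counted them with featureCounts 2.0.1 on a GENCODE annotation, without normalization. The strand setting and the handling of reads shared by overlapping genes are not given in the sources used here. Symbols were matched by Ensembl identifier for 60401 of 60656 rows, and coordinates on that assembly (GRCh38) come from GENCODE 44.

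Counts were filtered with filterByExpr, scaled by TMM and compared with edgeR 4.0.16 in R 4.3.3 (glmQLFit, glmQLFTest, no covariate, Benjamini–Hochberg over the 10863 genes tested, threshold 0.05). CPM are relative to the counts on tested genes. The standard error is the log2 fold change divided by the square root of F. Log2 ratios and per-library medians used a pseudocount of 0.5. The fit was checked on counts drawn with 200 genes changed. The biological coefficient of variation was 13.2%. A 3′ end was called overlapping when another gene's exon met its last 1000 annotated bases.

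The members and lists were chosen with earlier results of these data known. Named genes are the 10 members, up to 4 called genes with the largest change per list, and ATF4, TYMS, SLC25A32 and MKI67, except genes not reported here. Others were named after their values were seen. Alternatives were DESeq2 1.42.0, its size factors, total counts, 2 other filters, a replicate block and each library left out. Same-numbered libraries did not deviate together (correlations −0.0434, 0.00705 and −0.0893), so the numbers were not taken as pairs.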

Additional observations from a re-analysis of the deposited data

How the results depend on the processing

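Under every alternative run, 4 to 6 members were lower and 0 higher. The 5 lower members were lower with DESeq2, with its size factors, with total counts only, under both other filters and with the replicate block, which gave 5 lower, a median of −0.82 and 1280 genes lower and 1139 higher over all genes, against 1442 and 1354 without it, and changed no call of a member. Leaving out 1 library at a time gave medians of −1.03 to −0.72 for the tested members and of −1.01 to −0.50 for the cytosolic ones, the lowest values without abemaciclib replicate 3 and without DMSO replicate 2. The mitochondrial median stayed between −1.05 and −0.88. With DESeq2 or no filter on low counts, ASNS entered the fit and the mitochondrial and cytosolic medians drew together (−0.96 and −0.94 with DESeq2, −0.96 and −0.93 without the filter). PSPH changed sign without DMSO replicate 2 (0.14) or abemaciclib replicate 3 (0.16), with no call in any fit. Low counts limit PSAT1, PSPH, SHMT1 and MTHFD1L, with 12 to 59 counts a library, and leave ASNS and ALDH1L2 untested. With 3 libraries a group, the exact permutation test of a ratio cannot go below p = 0.1.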

Other observations

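Of 13 proline, glutamine, aspartate and arginine enzymes, 12 were tested, with 2 lower, 3 higher and a median log2 fold change of 0.0036, against 13.3% lower and 12.5% higher over all genes tested. ALDH18A1, which starts proline synthesis, went from 39.2, 52.9 and 50.3 CPM with DMSO to 80.2, 104 and 69.4 CPM with abemaciclib (log2 fold change 0.83, adjusted p = 0.000176). GLUL, which makes glutamine, rose by 0.67 (adjusted p = 2.32e-05). Both had groups that did not overlap. ASRGL1, an asparaginase, fell by 0.74 (adjusted p = 0.0136), and GOT1, which interconverts aspartate and oxaloacetate, fell by 0.59 (adjusted p = 0.0374) with groups that overlapped. The counts of ASRGL1 are uncertain, because another annotated gene overlaps its 3′ end on the other strand. The call of ASRGL1 was lost without DMSO replicate 2 (−0.58) or abemaciclib replicate 2 (−0.52), and that of GOT1 with DESeq2 and in 4 of the 6 fits that left out 1 library (DMSO replicate 1 or 3, −0.45 and −0.52, abemaciclib replicate 1 or 2, −0.58 and −0.47). PYCR3, the remaining higher gene, was lost with DESeq2 (adjusted p = 0.104) and under most other alternatives. The counts of PYCR3 are uncertain, because TIGD5, with 81 to 167 counts a library, overlaps its 3′ end on the other strand. ASPG had 0 counts in every library.

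Of 8 enzymes of serine or glycine metabolism outside folate, 6 were tested, with 0 lower (edgeR, 0 also at an unadjusted p under 0.05 and 0 with DESeq2) and 2 higher. Over all genes tested 13.3% were lower and 12.5% higher. SPTLC2, a subunit of the enzyme that joins serine to palmitoyl-CoA for sphingolipids, went from 164, 148 and 151 CPM to 192, 213 and 241 CPM (log2 fold change 0.48, adjusted p = 0.00124), and its partner SPTLC1 stood at −0.0043 (adjusted p = 0.984). GCAT, of threonine breakdown, rose by 0.85 (adjusted p = 0.0129), a call lost without DMSO replicate 2 (0.80), DMSO replicate 3 (0.76) or abemaciclib replicate 3 (0.75).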
